A study of Mus musculus with 24 samples.

Results

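The Clca genes encode a small family of proteins known as regulators of chloride channels. The 6 rows of the deposited table named Clca1, Clca2, Clca3a1, Clca3b, Clca4a and Clca4b, out of 24421 genes, were followed across colon and ileum of the same mice. The family was chosen by the measured values of Clca4b and Clca3b, which were higher in KO colon, so the KO and WT values in colon are given as a description, with no test of the members. The table held 2 more rows of the family, Clca3a2 and the pseudogene Clca4c-ps, whose values are given beside the members.

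RNA came from sorted cells of the gut lining, CD45-negative and carrying a tomato reporter driven by Villin, a protein of the brush border, from C57BL/6 mice aged 8 to 14 weeks. KO late mice were chimeras taken 8 weeks after chimerism (n = 3), and KO early mice were chimeras taken at 2 weeks (n = 4). WT irradiated mice were labelled as taken 8 weeks after chimerism (n = 2), and WT non-irradiated mice were untreated (n = 3). The series title names macrophages lacking the IL-10 receptor alpha chain and a response of the epithelium to IL-22, but the sample labels say only KO. Neither the deleted gene nor the donor and host of the chimeras is given by the labels, and the series design text speaks of macrophages although all samples are labelled as epithelium. KO early mice had no WT group at 2 weeks, so genotype and time cannot be told apart there.

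Clca proteins are processed by their own metalloprotease activity and act outside the cell. Human CLCA1 is known to raise the current through the calcium-activated chloride channel TMEM16A, whose mouse gene is Ano1. Mouse Clca1 is a product of goblet cells and a main component of intestinal mucus, and Clca4a was described in enterocytes of the gut. Clca3a1 is also known as a surface antigen of lymphatic endothelium, and human CLCA2 is a target of the tumour suppressor p53. Rodents carry several copies of the Clca3 and Clca4 types, which lie beside each other in the genome.

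Values are normalised reads, that is reads per gene divided by a size factor per library. Reads assigned to genes could be recovered for 23 libraries and came to 8.32 to 18.7 M per library. The ribosomal row Rn45s took 0.0642 to 29.4% of a library. Epithelial markers such as Epcam and Vil1 summed to 8656 to 17734 reads per M in colon libraries of KO late, against 9142 to 11441 in WT irradiated colon. The 1462 genes of olfactory and vomeronasal receptors served as a gauge of background reads, which were highest in KO late colon, at 753 to 1052 per M, against 428 to 690 in KO early colon, 233 to 590 in WT irradiated colon and 232 to 681 in WT non-irradiated colon. In ileum background reads ranged from 168 to 710 per M over all groups.

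By the RefSeq annotation of GRCm38.p6 all 8 Clca rows lie next to each other on chromosome 3 on the minus strand, with no other protein-coding gene between them. The order is Clca3a1, Clca3a2, Clca3b, Clca4c-ps, Clca4b, Clca4a, Clca1 and Clca2. The deposited values were made on another build, mm9, so the order is used for neighbourhood only. A table of RefSeq promoters of GRCm38.p6, each window running from 250 bases before to 50 bases after the start, held 4 of the 6 members. The windows of Clca3b (chr3:144849253-144849552, minus strand) and Clca4b are shown because the values of these genes chose the family. No letters are marked in Clca3b. In Clca4b (chr3:144932480-144932779, minus strand) capitals mark 2 matches to TATAAA on the opposite strand, whose first bases lie 166 and 119 bases before the start.
Clca3b: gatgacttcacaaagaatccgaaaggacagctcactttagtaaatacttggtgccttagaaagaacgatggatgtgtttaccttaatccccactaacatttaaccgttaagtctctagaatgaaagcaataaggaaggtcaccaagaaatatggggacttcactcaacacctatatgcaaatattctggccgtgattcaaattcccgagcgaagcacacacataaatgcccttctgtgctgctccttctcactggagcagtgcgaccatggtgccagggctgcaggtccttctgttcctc
Clca4b: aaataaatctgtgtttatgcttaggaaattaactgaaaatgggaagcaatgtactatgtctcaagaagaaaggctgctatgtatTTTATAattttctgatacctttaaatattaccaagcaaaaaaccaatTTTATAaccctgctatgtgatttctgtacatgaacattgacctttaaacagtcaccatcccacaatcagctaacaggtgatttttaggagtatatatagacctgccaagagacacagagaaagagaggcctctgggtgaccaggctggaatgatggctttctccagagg

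No 2 of the 4 windows, those of Clca3a1, Clca3b, Clca4b and Clca2, shared more than 9 bases in a row. The motif TTCNNNGAA, read on both strands as the site of STAT factors, was found once in the window of Clca2 and not in those of Clca3a1, Clca3b and Clca4b, and 8.3% of all 32851 promoters in the table held it. CAATAAA, a CDX2 motif, and CAAAGTC, an HNF4A motif, were found in none of the 4 windows, and 4.6% and 4.44% of all promoters held them. TATAAA was found only in Clca4b among the 4, and in 13.6% of all promoters. These counts describe letters in these windows and no binding was measured.

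Clca4b had the widest contrast of the family. Its normalised reads were 40108.8, 73441.4 and 103359.7 in KO late colon and 18655.0, 26801.5, 49379.7 and 83854.1 in KO early colon, against 372.0 and 255.7 in WT irradiated colon and 312.2, 275.2 and 276.4 in WT non-irradiated colon. The lowest KO colon library, a KO early mouse, was above every WT colon library, and the KO and WT values did not overlap. The mean over KO colon was 56514 ± 31264 (SD, n = 7), 189-fold the 298 ± 46.0 of WT colon (SD, n = 5). On the log2(value + 1) scale, used for all log2 values here, it was 7.76 ± 0.53 (SE) higher in KO late and 6.94 ± 0.50 (SE) higher in KO early than in WT irradiated colon, which both comparisons share as control. Across the alternatives tried these values ran between 7.45 and 8.14 for KO late and between 6.56 and 7.28 for KO early. Clca4b was the 4th to 32nd most abundant of 24420 rows by reads in KO colon libraries, against the 5922nd to 6895th in WT colon libraries.

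Clca3b, of the Clca3 type, followed the same direction at a smaller size. It had 14051.7, 24656.5 and 15511.8 normalised reads in KO late colon and 4597.4, 9271.6, 19782.1 and 13464.3 in KO early colon, against 1484.8 and 1081.7 in WT irradiated colon and 1727.8, 1184.6 and 1696.4 in WT non-irradiated colon. All 7 KO values lay above all 5 WT values, with the same KO early mouse lowest. The means were 14477 ± 6567 in KO colon and 1435 ± 293 in WT colon (SD), a 10.1-fold ratio. The log2 difference from WT irradiated colon was 3.79 ± 0.48 (SE) in KO late and 3.02 ± 0.46 in KO early.

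Clca3a1, the lymphatic endothelial antigen, was low in all groups and was also higher in KO colon. It had 717.2, 752.8 and 338.3 normalised reads in KO late colon and 264.8, 487.5, 459.1 and 1115.2 in KO early colon, against 100.4 and 86.2 in WT irradiated colon and 68.8, 52.9 and 133.4 in WT non-irradiated colon. The KO and WT values did not overlap, and the means differed 6.69-fold. The log2 difference from WT irradiated colon was 2.60 ± 0.53 (SE) in KO late and 2.43 ± 0.50 in KO early. With receptor reads as a covariate the KO late value was 1.86. The 10 endothelial markers, Lyve1 and Prox1 among them, summed to 73.9 to 147 reads per M in KO late colon and 67 to 108 in KO early colon, against 57.5 to 103 in WT irradiated colon and 42.2 to 127 in WT non-irradiated colon. None of the 10 was at 0 in every library of a group, and their median log2 difference was 0.70 in KO late against WT irradiated colon, beside -0.01 over all genes. In KO early against WT irradiated colon that median was 0.25, beside 0.04 over all genes. The medians of 8 stroma and 10 leukocyte markers were 0.98 and 0.68 in KO late and 0.53 and 0.35 in KO early. None of the endothelial, stroma and leukocyte markers was called in either comparison by limma, edgeR or DESeq2. Over all genes limma called 1.03% for KO late and 0.204% for KO early. Without adjustment, 16.5% of all genes for KO late and 6.4% for KO early had p under 0.05. Among the markers at that level, 2 endothelial markers were higher in KO late and 1 was lower in KO early. In addition, 1 stroma marker was higher in KO late, and 1 leukocyte marker was higher in each. Their part in the Clca3a1 values was not tested.

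Clca1, the goblet cell member, went the other way. It had 42597.4, 13678.5 and 16043.4 normalised reads in KO late colon and 49215.0, 23391.5, 10142.3 and 44362.6 in KO early colon, against 141588.6 and 62399.5 in WT irradiated colon and 184400.5, 152015.5 and 115798.0 in WT non-irradiated colon. Every KO value was below every WT value. The means were 28490 ± 16419 in KO colon and 131240 ± 45668 in WT colon (SD), 4.61-fold lower in KO. On the log2 scale Clca1 was -2.16 ± 0.66 (SE) in KO late and -1.81 ± 0.63 in KO early relative to WT irradiated colon. Against WT non-irradiated colon it was -2.81 in KO late and -2.46 in KO early. Without WT irradiated mouse 59 it was -1.57 in KO late and -1.22 in KO early, and without mouse 61 -2.75 and -2.40. The receptor-read covariate gave -1.40 in KO late. It was the 1st to 3rd most abundant row in WT colon libraries, and the 7th to 108th in KO colon libraries.

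Clca2 was the lowest member in ileum and in KO colon, and had 122.6, 103.3 and 42.4 normalised reads in KO late colon and 82.6, 62.2, 49.7 and 76.1 in KO early colon, against 162.1 and 121.2 in WT irradiated colon and 183.5, 186.5 and 200.9 in WT non-irradiated colon. The ranges met only where 1 KO late mouse (122.6) passed 1 WT irradiated mouse (121.2). The log2 difference from WT irradiated colon was -0.78 ± 0.40 (SE) in KO late and -1.07 ± 0.38 in KO early.

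Clca4a, the enterocyte member, overlapped between the genotypes. It had 13282.5, 19969.0 and 20419.6 normalised reads in KO late colon and 7757.0, 7995.9, 10317.1 and 23567.6 in KO early colon, against 15050.2 and 13113.8 in WT irradiated colon and 20729.6, 15497.5 and 13624.9 in WT non-irradiated colon. The KO range enclosed the WT range, and the means were 14758 ± 6499 in KO colon and 15603 ± 3029 in WT colon (SD). Levels per kb of exon were set side by side for Clca4b and Clca4a, neighbours in the cluster. The 2 genes share part of their sequence, as given below, so these ratios are uncertain, above all in WT colon. Clca4b was 2.10 to 8.15 times the level of Clca4a in KO colon libraries, against 1.51 to 2.48% of it in WT colon libraries.

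**Figure D1:**
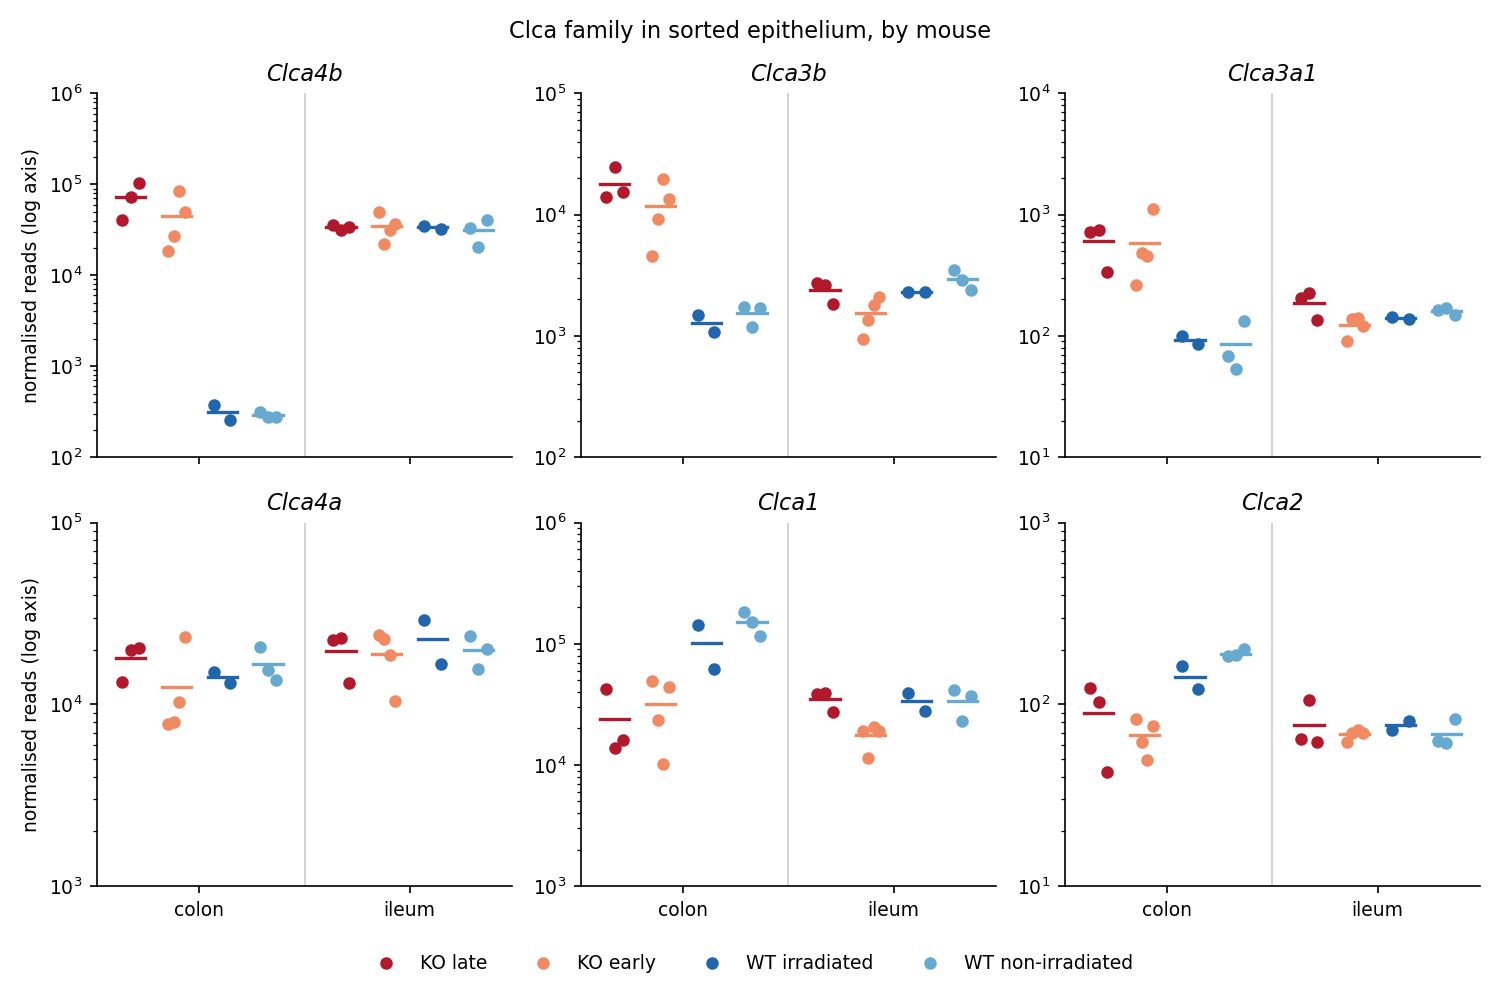
Normalised reads (log axis) of each member by mouse in colon and ileum, with 1 point per library, a bar at the group mean and colours for the 4 mouse groups. In colon, KO points stand above WT points for Clca4b, Clca3b and Clca3a1 and below them for Clca1, while the ileum points of KO and WT mice overlap for all 6 members.

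In KO and WT colon 3 of 6 members did not overlap with KO above, and 1 of 6 did not overlap with KO below. Of the 19145 genes measured in colon, 1.15% did not overlap with KO above and 2.39% with KO below. These shares are given for scale, since the contrast was used to choose the family. The 2 further rows were also above without overlap. Clca3a2 had 424.2 to 2313.3 normalised reads in KO colon, against 198.5 to 279.7 in WT colon, a 5.62-fold ratio of means. The pseudogene Clca4c-ps had 28.7 to 483.8 in KO colon, against 12.7 to 23.8 in WT colon, a 9.72-fold ratio. With the chromosomal order in view, the 5 rows that were higher in KO colon without overlap were the 5 at the Clca3a1 end of the cluster. Clca4a next to them overlapped. At the other end Clca1 was lower without overlap, and Clca2 had a lower mean with ranges that overlapped.

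The nearest genes outside the cluster overlapped between genotypes. Of the 3 nearest protein-coding genes on each side, 5 had a row, and all 5 had overlapping values in KO and WT colon. Overlap was the common case, since only 1.15% of all genes were without overlap above and 2.39% below. The overlap of these neighbours therefore does not mark an edge of the difference. On the Clca3a1 side Sh3glb1, a membrane-bending adaptor, averaged 2173 ± 215 in KO colon and 1959 ± 377 in WT colon (SD). Selenof, a selenoprotein listed as Sep15, averaged 1575 ± 171 in KO colon and 1132 ± 217 in WT colon. On the Clca2 side Odf2l averaged 399 ± 68.9 in KO colon and 623 ± 147 in WT colon, Col24a1, a collagen chain, 391 ± 139 and 243 ± 134, and Znhit6 80.0 ± 21.4 and 83.7 ± 14.7 in the same order.

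**Figure D2:**
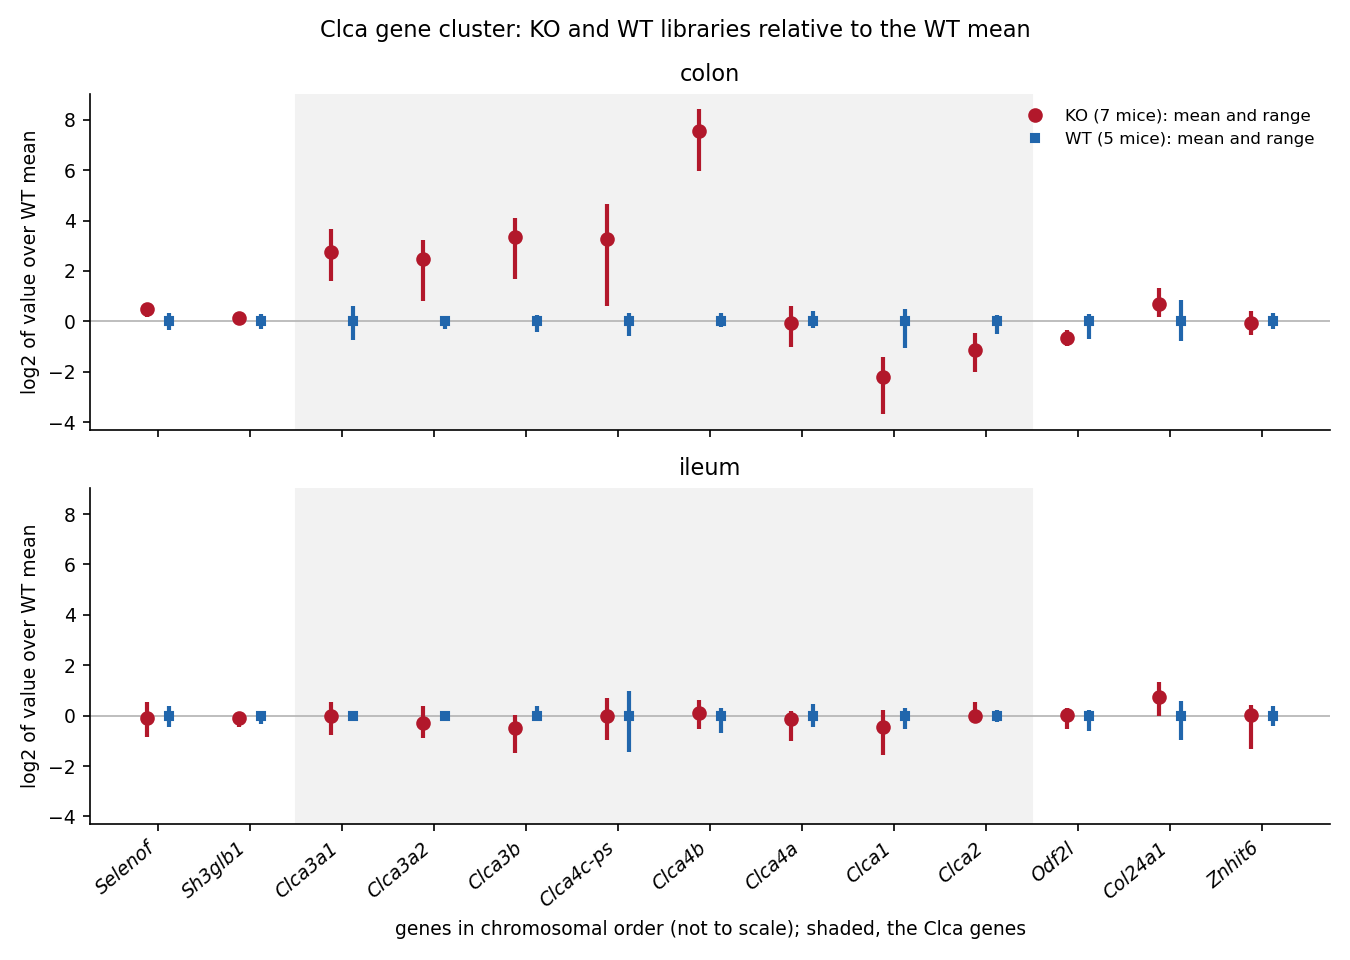
Clca genes (shaded) and their neighbours in chromosomal order, not to scale, in colon (above) and ileum (below). Red points and lines give the mean and range of the 7 KO libraries, and blue squares and lines those of the 5 WT libraries, as log2 of the value over the WT mean. In colon the KO ranges of the 5 rows from Clca3a1 to Clca4b lie above those of WT, and that of Clca1 lies below. Clca2 has a lower KO mean in colon, with ranges that overlap at the edge. In ileum the ranges of KO and WT overlap for each gene.

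Close copies limit how far the members can be told apart by reads of 50 bases. Of the 50-base stretches in the annotated exons, 41.0% of those of Clca4a and 24.8% of those of Clca4b occurred in another gene as well, and 21.0% of those of Clca4b in Clca4a. The share was 26.8% for Clca3a1, 26.9% for Clca3a2, 27.7% for Clca4c-ps and 6.68% for Clca3b, and 0% for Clca1 and Clca2. The sources used here do not give how reads that fit several genes were counted. The values of Clca3a1, Clca3a2, Clca4a, Clca4b and Clca4c-ps are therefore uncertain, and the shares above do not bound the error. The error can be large for a low gene beside an abundant copy, such as Clca4c-ps with a mean of 184 normalised reads in KO colon beside Clca4b with 56514. Another case is Clca4b in WT colon, with a mean of 298 beside Clca4a with 15603. The part of shared reads in these values was not tested.

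KO late and KO early colon were compared with each other, since both are KO and this contrast was not used to choose the family. By limma 0 of 6 members were called, with 0 at an unadjusted p under 0.05 and 0 by edgeR and by DESeq2, and 0.00522% of all genes tested were called, with 10.8% at an unadjusted p under 0.05. Clca4b was 0.83 ± 0.44 (log2, SE) higher in KO late (adjusted p = 0.470) and Clca3b 0.76 ± 0.40 higher (adjusted p = 0.470). Clca4a was 0.66 ± 0.36 higher (adjusted p = 0.471), and Clca1 differed by -0.35 ± 0.56 (adjusted p = 0.750). The KO late and KO early ranges overlapped for all 6 members. WT irradiated and WT non-irradiated colon differed in 0 of 6 members by limma, edgeR and DESeq2, 0 at an unadjusted p under 0.05 (0.345% of all genes), and 0% of all genes were called. The log2 differences of the members ran from -0.66 to 0.24.

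Within the 7 KO colon libraries Clca3b and Clca4b tended to be high in the same mice. Their KO colon values chose the family, so pairs with either gene are described here without p-values. Pearson's r of their log2 values was 0.876 and Spearman's rho 0.821. Without the 2 mice farthest from the median of Clca3b r was 0.847, and around the means of KO late and KO early it was 0.834. Clca1 and Clca4b had r = -0.743 and rho = -0.750, and without the 2 mice farthest from the median of Clca1 r was -0.560. Among the pairs without Clca3b and Clca4b, none passed 0.05 by exact permutation for either measure. The adjustment ran over all 15 pairs of members, the described ones included. Over the ileum of all 12 mice Clca3a1 and Clca3b had r = 0.772 (permutation p = 0.00384, adjusted p = 0.0576) and rho = 0.832 (permutation p = 0.00125, adjusted p = 0.0187), r = 0.615 without the 2 mice farthest from the median of Clca3a1 and 0.736 around the group means. Clca1 passed by rho with Clca3a1 (0.734, adjusted p = 0.0414) and Clca3b (0.762, adjusted p = 0.0409), but around the group means r was 0.105 and 0.311. These permutations shuffled mice across the 4 ileum groups, so their p-values do not measure the relation within groups. Clca3a1 and Clca3b also share exon stretches with other genes (26.8% and 6.68%). The part of shared reads in these correlations was not tested.

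In ileum the levels of Clca4b in KO and WT mice overlapped. It had 35428.0, 31224.4 and 34398.4 normalised reads in KO late ileum and 49922.2, 22360.4, 31702.3 and 36434.0 in KO early ileum, against 35155.6 and 32655.7 in WT irradiated ileum and 33272.1, 20341.7 and 40320.0 in WT non-irradiated ileum. All 4 ranges overlapped. KO late differed from WT irradiated ileum by -0.01 ± 0.37 and KO early by -0.01 ± 0.35 (log2, SE), with adjusted p-values of 1.00 and 0.990 by limma.

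No member was called in ileum between KO and WT, and 0 of 6 members were without overlap between all KO and all WT mice, against 0.424% of all genes. In KO late against WT irradiated ileum limma, edgeR and DESeq2 called 0 of 6 members, 0 reached an unadjusted p under 0.05 (0.821% of all genes), and 0% of all genes were called. In KO early against WT irradiated ileum all 3 tools called 0 of 6 members, with 0% of all genes called by limma, but 2 members reached an unadjusted p under 0.05, as did 24.9% of all genes. These were Clca1, at 17559 ± 4141 in KO early ileum and 33531 ± 7809 in WT irradiated ileum (SD), a log2 difference of -0.95 ± 0.34 (adjusted p = 0.165), and Clca3b. For Clca3b the values were 948.8, 1361.7, 1782.3 and 2076.8 in KO early ileum, against 2300.4 and 2316.8 in WT irradiated ileum (-0.64 ± 0.29, adjusted p = 0.198). Both genes were below WT irradiated ileum without overlap, as were 17.1% of all genes. Rn45s took 3.81 to 29.4% of reads in KO early ileum, against 0.130 to 0.549% in WT irradiated ileum. The 16 goblet cell and mucus genes had a median log2 difference of -0.91, beside -0.09 over all genes. Of these 0 were called by limma or edgeR, DESeq2 called 2 lower, where it called 15 of 18915 genes, and 8 were lower and 1 higher at an unadjusted p under 0.05. The stroma and endothelial markers had medians of 1.01 and 0.99, with 0 called by the 3 tools. At an unadjusted p under 0.05, 3 of 8 and 6 of 10 were higher. The 9 leukocyte markers tested had a median of 0.73, with 0 called by the 3 tools. Of these, 2 were higher and 1 lower at an unadjusted p under 0.05. The part of these in the values of Clca1 and Clca3b was not tested. WT irradiated against WT non-irradiated ileum gave 0 of 6 members by the 3 tools, 0 at an unadjusted p under 0.05 (0.978% of all genes) and 0% of all genes called.

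KO late ileum was set against KO early ileum. By limma 0 of 6 members and 0% of all genes were called, while 3 members and 24.6% of all genes reached an unadjusted p under 0.05. Clca1 had 38175.5, 39485.5 and 27116.2 normalised reads in KO late ileum, against 19006.8, 11450.2, 20655.6 and 19121.8 in KO early ileum. The groups did not overlap, with KO late above (14.2% of all genes), and the log2 difference was 1.01 ± 0.30 (SE, adjusted p = 0.0945 by limma). DESeq2 called it (adjusted p = 0.0315) and edgeR did not. Clca3b (0.67 ± 0.26, adjusted p = 0.146) and Clca3a1 (0.61 ± 0.23, adjusted p = 0.148) were the others. KO early ileum libraries carried more of the ribosomal row, at 3.81 to 29.4% of reads, against 0.283 to 13.6% in KO late ileum. The 16 goblet cell and mucus genes had a median log2 difference of 0.87, beside -0.02 over all genes. Of these 0 were called by limma or edgeR, DESeq2 called 3 higher, where it called 405 of 18915 genes, and 10 were higher and 1 lower at an unadjusted p under 0.05. The stroma, endothelial and leukocyte markers had medians of -0.70, -0.64 and -0.003. The part of these in the values of the members was not tested.

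Colon was compared with ileum within each genotype to place the members along the gut. In WT mice Clca1 and Clca2 were higher in colon, and the others had lower means there. Clca1 averaged 131240 ± 45668 in WT colon and 33685 ± 7706 in WT ileum (SD, n = 5 each), a log2 difference of 1.84 ± 0.39 (SE, adjusted p = 0.00112 by limma), and was higher in colon in 5 of 5 mice. Clca2 averaged 171 ± 31.0 in WT colon and 72.0 ± 10.2 in WT ileum (1.17 ± 0.25, adjusted p = 0.00114, 5 of 5 mice). So 2 of the 4 members tested were called higher, where 10.8% of all genes were called higher, 10.9% lower and 21.6% in either direction. Clca3a1 was lower in colon in 5 of 5 WT mice, at -0.81 ± 0.32, which limma did not call (adjusted p = 0.0764). With the mouse as a block it was called (adjusted p = 0.0142), likewise with receptor reads as a covariate (adjusted p = 0.0179), and without WT non-irradiated mouse 75 (adjusted p = 0.0300). Clca4a differed by -0.45 ± 0.31 (adjusted p = 0.362).

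Clca4b and Clca3b are described here, since their colon values chose the family. In WT mice Clca4b averaged 298 ± 46.0 normalised reads in colon and 32349 ± 7358 in ileum (SD), 108-fold lower in colon, and its ratio of colon to ileum within a mouse lay between 0.00686 and 0.0135. In KO mice the same ratio was 1.13, 2.35 and 3.00 in KO late and 0.374, 1.20, 2.65 and 1.36 in KO early. Colon was the higher tissue in 6 of 7 KO mice, against 0 of 5 WT mice. For Clca3b the ratio was 4.85 to 11.1 in KO mice, against 0.406 to 0.711 in WT mice.

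Clca3a1 could be tested in KO mice and was higher in colon. In KO late mice it averaged 603 ± 230 in colon and 189 ± 46.6 in ileum (SD, n = 3), a log2 difference of 1.62 ± 0.40 (adjusted p = 0.00522 by limma). In KO early mice the means were 582 ± 369 in colon and 122 ± 22.7 in ileum (n = 4), a difference of 2.06 ± 0.35 (adjusted p = 0.000127). The gene was higher in colon in 7 of 7 KO mice and lower in 5 of 5 WT mice, and the difference between genotypes was not tested, since it contains the contrast that chose the family. In each of the KO late and KO early comparisons 1 of 4 members tested was called, both times higher, where 11.1% (KO late) and 7.73% (KO early) of all genes were called higher, and 28% and 14.2% in either direction. With receptor reads as a covariate the KO late difference was 1.15 (adjusted p = 0.0671) and lost its call. Of the 50-base stretches of Clca3a1, 26.8% occurred in another gene as well. The part of shared reads in its colon and ileum values was not tested. Clca1, Clca2 and Clca4a were not called in KO mice by limma, edgeR or DESeq2. The difference of Clca1 was -0.71 ± 0.50 in KO late (adjusted p = 0.250) and 0.65 ± 0.43 in KO early (adjusted p = 0.429). That of Clca4a in KO early was -0.71 ± 0.33 (adjusted p = 0.205), and without KO early mouse 120 it was -1.33 and called (adjusted p = 0.00249).

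**Figure D3:**
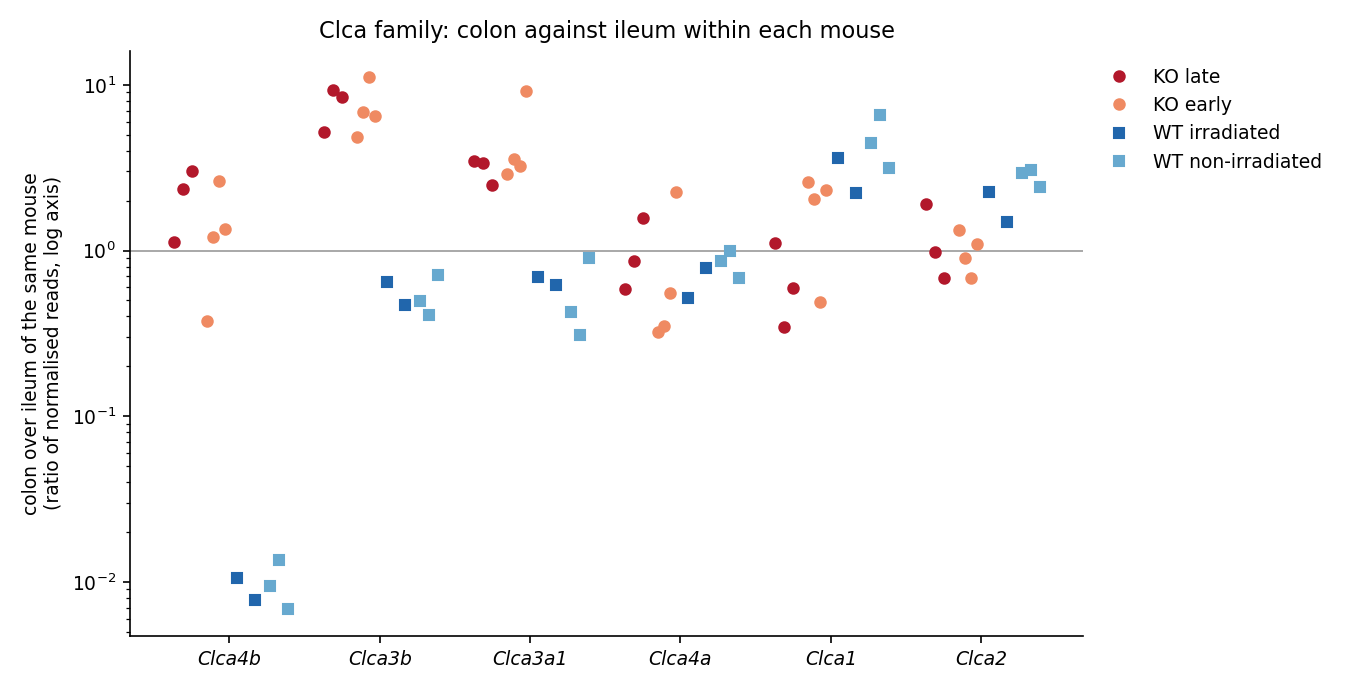
Ratio of colon to ileum normalised reads within each mouse (log axis, line at equal levels) for the 6 members, with KO mice as circles and WT mice as squares. For Clca4b 6 of 7 KO mice lie above the line and 1 KO early mouse lies below it at 0.374, all 7 lie above it for Clca3b and Clca3a1, the 5 WT mice lie below it for these 3 genes, and WT mice lie above it for Clca1 and Clca2.

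Whether the difference between KO late and KO early differed between tissues was tested as an interaction. By limma 0 of 6 members were called, 0 at an unadjusted p under 0.05 and 0 by edgeR and DESeq2, where 2.51% of all genes were called and 31% reached an unadjusted p under 0.05. The largest value was that of Clca1, at -1.36 ± 0.66 (log2, SE, adjusted p = 0.162). The interaction of irradiation with tissue in WT mice gave 0 of 6 members by the 3 tools, 0 at an unadjusted p under 0.05 (0.878% of all genes) and 0% of all genes called.

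Placed in order of their means, the groups fell into few steps. Clca4b ran from 72303 in KO late colon over 44673 in KO early colon to the 4 ileum groups at 31311 to 35105, and each neighbour overlapped with the next. Only WT irradiated colon (314) and WT non-irradiated colon (288) stood apart, 1 step down. For Clca3b KO late and KO early colon stood above all other groups, and the remaining 6 groups spread between 1283 and 2928. For Clca3a1 the same 2 groups stood above the rest, which lay between 85.0 and 189. For Clca1 the 6 groups from KO early ileum (17559) to KO late ileum (34926) overlapped with their neighbours, and WT irradiated colon (101994) and WT non-irradiated colon (150738) lay above them.

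The make-up of the family in each library was taken as each member's share of the 6 members' summed normalised reads per kb of exon. In KO colon Clca4b held 49.6 ± 16.2% of the sum, Clca1 24.6 ± 18%, Clca4a 13.5 ± 3.43% and Clca3b 11.8 ± 3.81% (mean ± SD, n = 7). In WT colon Clca1 held 84.8 ± 4.21%, Clca4a 13.6 ± 3.85%, Clca3b 1.12 ± 0.32% and Clca4b 0.266 ± 0.0857% (n = 5). In ileum Clca4b held 46.0 ± 8.31% in KO mice and 39.1 ± 4.56% in WT mice, and Clca1 25.7 ± 7.66% and 32.2 ± 1.85% in the same order. Clca3a1 and Clca2 stayed under 1% of the sum in every library. The summed level per kb was 20695 to 50244 in KO colon libraries, against 21342 to 56398 in WT colon libraries, so these ranges overlapped.

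**Figure D4:**
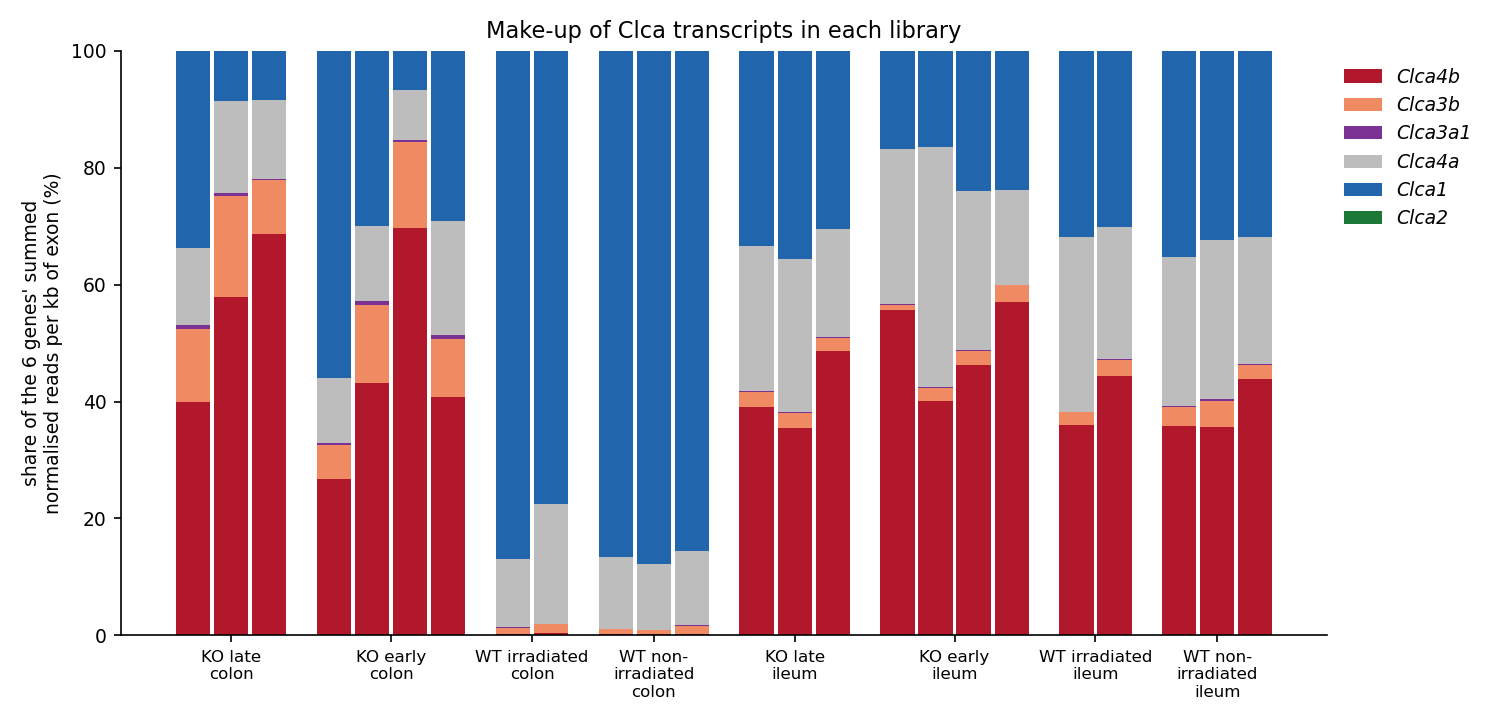
Share of each member in the summed normalised reads per kb of exon of the 6 members, in percent, with 1 stacked bar per library. Clca1 fills 77.4 to 87.7% of the bar in WT colon libraries and 6.69 to 55.9% in KO colon libraries, where Clca4b takes 26.7 to 69.8%, and in ileum Clca4b takes 35.4 to 57.0% in KO mice and 35.6 to 44.3% in WT mice.

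Genes of the surrounding physiology were taken from lists, which were drawn up with earlier results of these data known. Of 28 genes of epithelial chloride, bicarbonate and fluid transport, limma called 0 in KO late against WT irradiated colon, where 1.03% of all genes tested were called. At an unadjusted p under 0.05, reached by 16.5% of all genes, 10 were lower and 0 higher, edgeR called 0 and DESeq2 called 4 lower. Over all 19145 genes DESeq2 called 805 (4.2%), of which 463 were lower. The median log2 difference was -0.59, against -0.01 over all genes. Kcne3, a potassium channel subunit, was at -1.71 ± 0.38 (adjusted p = 0.0512), Guca2a, the peptide guanylin, at -2.33 ± 0.60 (adjusted p = 0.102), and Slc26a3, the chloride and bicarbonate exchanger of the colon, at -1.63 ± 0.47 (adjusted p = 0.143). Cftr, the chloride channel mutated in cystic fibrosis, was at -0.62 ± 0.41 (adjusted p = 0.383). In KO early against WT irradiated colon limma, edgeR and DESeq2 called 0 of the 28, 2 were lower at an unadjusted p under 0.05 (6.4% of all genes), and 0.204% of all genes were called.

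Of 16 genes listed for goblet cells and mucus, limma called 2 lower and 0 higher in KO late against WT irradiated colon. Over all genes 1.03% were called. Whether each listed gene shares a cell type with Clca1 was not examined. Tgm3, a transglutaminase, averaged 1331 ± 955 in KO late and 14603 ± 5348 in WT irradiated colon (SD), a log2 difference of -3.64 ± 0.66 (adjusted p = 0.0186). Klk1, a kallikrein protease, was at -2.47 ± 0.52 (adjusted p = 0.0366). Muc2, the main mucin, was at -0.79 ± 0.59 (adjusted p = 0.437), Fcgbp, another mucus protein, at -1.49 ± 0.79 (adjusted p = 0.331), and Spdef, a goblet cell transcription factor, at -0.76 ± 0.46 (adjusted p = 0.359). The median of the 16 was -0.62, against -0.01 over all genes. In KO early colon limma, edgeR and DESeq2 called 0 of the 16, 3 were lower at an unadjusted p under 0.05 (6.4% of all genes in either direction), and the median was -0.53. In these sorted bulk samples, fewer goblet cells and less RNA of Clca1 per cell cannot be told apart. Of the 16 genes, 9 were higher and 0 lower in WT colon than in WT ileum, where 10.8% of all genes were higher and 10.9% lower.

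Since Clca4b reached its ileum range in KO colon, a list of small intestine genes and another of large intestine genes were looked at beside it. The names of the lists stand for higher levels in that region and not for genes found only there. Of the 10 genes listed for large intestine, 10 were higher in WT colon than in WT ileum by limma, as were 10.8% of all genes. Of 10 small intestine genes, Fabp6 and Apoa4 among them, 10 were lower in WT colon than in WT ileum by limma, as were 10.9% of all genes. In KO late against WT irradiated colon 0 of the 10 rose and 1 fell, where 1.03% of all genes were called, namely Slc10a2, the bile acid transporter of the ileum (-2.78 ± 0.47, adjusted p = 0.0143). At an unadjusted p under 0.05 (16.5% of all genes) 1 was higher and 2 lower, edgeR and DESeq2 called 0 higher, and the median was 0.22. Of 10 large intestine genes 3 fell and 0 rose in the same comparison, with the same 1.03% of all genes called, namely Mptx1 (-7.02 ± 1.13, adjusted p = 0.00959), Ang4 (-6.08 ± 0.91, adjusted p = 0.00668) and Slc37a2 (-4.20 ± 0.72, adjusted p = 0.0150), and the median was -0.93. At an unadjusted p under 0.05, 5 large intestine genes were lower in KO late and 0 higher. In KO early against WT irradiated colon limma and edgeR called 0 of both lists, where limma called 0.204% of all genes. DESeq2 called 1 large intestine gene lower, among 235 genes called. The medians were 0.39 (small) and -0.61 (large), beside 0.04 over all genes. Unadjusted, 1 small intestine gene was higher and 2 lower, and 4 large intestine genes lower and 0 higher (6.4% of all genes). Both lists were drawn up with earlier results of these data known. The counts are therefore a description and no independent support for a change of region.

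The genes whose 8 group means followed a member most closely were sought among 10325 genes whose mean reached 100 normalised reads. The measure is Pearson's r of mean log2 values over the 8 groups, given as a description. For Clca4b they were Tnfsf10 (r = 0.982), the death ligand TRAIL, Rnf128 (0.981), a ubiquitin ligase, Tgm2, Pfkfb3 and Rab24. Tgm2 averaged 1706 in KO late colon and 2799 in KO early colon, against 145 in WT irradiated colon and 135 in WT non-irradiated colon, and 1450 to 2333 in the 4 ileum groups. For Clca3b they were Spats2 (0.973), Plat (0.972), the tissue plasminogen activator, Nfkbia, Txnrd1 and Nucb2. For Clca3a1 they were Plat (0.971), Spats2, Nsf, Trim15 and Tac1. Plat averaged 1059 in KO late colon and 571 in KO early colon, against 54.1 in WT irradiated colon and 46.2 in WT non-irradiated colon, and 82.0 to 120 in the ileum groups. For Clca1 they were Ccdc66 (0.993), Xpr1, Sbds, Airn and Insr, and for Clca4a Tmem131 (0.945), Mef2a, Tanc1, Itpkc and Mtmr11. Clca2 was below the mean of 100 that the search required. Among the members themselves r was 0.972 for Clca3a1 and Clca3b, 0.933 for Clca1 and Clca2, and -0.943 for Clca1 and Clca4b.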

How the data were processed

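RNA was measured in 24 libraries, colon and ileum of 12 mice. A ribosome-depleting, strand-keeping library kit was fed 100 ng, per the labels' protocols, and read from 1 end over 50 bp, using 3 lanes, while the molecule label says polyA RNA. Per the submitters' processing notes, bcl2fastq, HISAT 0.1.6 and HOMER were used, on mm9. Whether counting used strand is not stated in these sources. The authors deposited 1 coverage signal per gene and library, a size-factor scaling of the reads given to 1 decimal.

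Whole reads were recovered from the value steps in 23 libraries, where 100% of the low values came out whole within 0.05 normalised reads. In ileum of KO early mouse 118 the step was too close to 1 to tell from rounding, so this library was left out of edgeR 4.0.16 and DESeq2 1.42.0 and kept in the main tests. These were trended limma fits (limma 3.58.1, R 4.3.3) of log2(value + 1) over genes reaching 10 normalised reads in 2 or more libraries, with Benjamini-Hochberg adjustment over all genes and calls under 0.05. Comparisons within a tissue used its 12 libraries as 4 groups with 1 shared spread, and colon against ileum used all 24 libraries as 8 groups. The code was tested on simulated data. Replicates are mice with separate numbers. Colon and ileum with 1 mouse number are paired, being 1 animal by the labels, and their deviations from the group means correlated at -0.362 to 0.557 in 10 mice. In these fits log2 differences understate the change of low genes.

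The members and lists were chosen with earlier results of these data known. All Clca rows, their nearest 3 protein-coding neighbours on each side, the 5 genes most like each member with a mean of at least 100, and called list genes with up to 4 more of the largest change were named, of which a selection is printed. Mptx1, Ang4 and Slc37a2 are called list genes. Cftr and Spdef were named for their roles after their values were seen. Exon lengths and shared 50-base stretches came from GENCODE M21, and promoters from RefSeq, GRCm38.p6. Alternatives were other pseudocounts, filters, scaling, tools, controls, a receptor-read covariate, a mouse block and leaving out each mouse.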

Additional observations from a re-analysis of the deposited data

Results flagged for a closer look

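Among the 12 sets of 4 KO early libraries examined, 6 members in each of 2 tissues, 1 held a value far from the rest. Clca4a had 23567.6 normalised reads in colon of KO early mouse 120, against 7757.0 to 10317.1 in the other KO early mice. For normally spread values chance gives about 1 such value in 20 sets. The distance was judged on normalised reads, by the gap to the next value as a share of the range. On the log2 scale that share is smaller and falls under the limit used, 0.829. In the same mouse Clca3a1 was also the highest of the group, at 1115.2.

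Clca3a1 and Clca3b moved in opposite directions between tissues in KO and WT mice. The median ratio of colon to ileum within a mouse was 3.36 for Clca3a1 in KO mice, above 1 in 7 of 7, against 0.621 in WT mice, below 1 in 5 of 5. For Clca3b it was 6.81 in KO mice, above 1 in 7 of 7, against 0.496 in WT mice, below 1 in 5 of 5. These differences between genotypes were not tested, because they contain the contrast that chose the family.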

How the results depend on the processing

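Of 1648 values recomputed under alternatives, 1634 kept their direction and side of the threshold or, where described, moved by less than the spread between mice, 14 changed and 0 turned their sign past the threshold. The number of members called changed in 4 comparisons. In WT colon against WT ileum it was 3 of 4, against 2, with the replicate block, the receptor-read covariate and without WT non-irradiated mouse 75. These counts of 3 were classed as kept and are not among the 14 changes, which hold the calls of Clca3a1 behind them. In KO late against KO early ileum DESeq2 called 1 of 6, Clca1, against 0. In KO late colon against KO late ileum the receptor-read covariate left 0 of 4, against 1. In KO early colon against KO early ileum leaving out a mouse gave 1 to 2 of 4, with 2 without KO early mouse 120. The replicate block, the mouse as a term, called Clca3a1 (adjusted p = 0.0142) and Clca3a2 (adjusted p = 0.0319) in WT colon against WT ileum and changed no other call among 45 values. Clca3a2 in KO late against KO early ileum was called with the receptor-read covariate (adjusted p = 0.0260) and DESeq2 (adjusted p = 0.0202), against 0.0741. Clca2 in KO early colon was at -1.50 against WT non-irradiated, beside -1.07 against WT irradiated. The causes were not tested. Genes called over all genes in KO late against WT irradiated colon ranged from 11 to 805 over alternatives, with 197 in the fit as reported, and in KO early from 3 to 235, with 39. In the interaction of late and early with tissue they ranged from 0 to 5605, the highest with the block, with 491 as reported. They ranged from 0 to 213 in KO late against KO early colon (1 as reported), from 0 to 15 in KO early against WT irradiated ileum (0), from 0 to 1316 in KO late against KO early ileum (0), from 2585 to 5596 in WT colon against WT ileum (4236), from 2797 to 9632 in KO late colon against KO late ileum (5494) and from 2119 to 4989 in KO early colon against KO early ileum (2774). WT irradiated had 2 mice, so when 1 was left out the lone mouse was assumed to vary like the other groups.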
